A study of Mus musculus with 24 samples.

Results

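The hypothalamus libraries at both ends of the Hcrt range were compared: the 6 libraries with the highest Hcrt level and the 6 with the lowest, 12 of 24 in all. Hcrt encodes the orexin precursor, and the sides are called Hcrt-high and Hcrt-low. The libraries were chosen by their measured Hcrt level, so every difference between the sides is a description without a test. Tests were kept to the 12 middle libraries, which lie on neither side, and to the diet, sex, lane and intake labels.

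The animals were C57BL6 mice aged 15 months that had eaten their diet since 12 weeks of age. The diets named BCAA20, BCAA50, BCAA100 and BCAA200 carried 20, 50, 100 and 200% of the usual amount of branched-chain amino acids (BCAA). Females 1 to 3 and males 4 to 6 were sampled per diet, with 1 RNA library per animal, and no group carried a genetic change or a drug in the labels. BCAA100, which the sample titles call Chow, was sequenced in lane 2 and the other diets in lane 1, so BCAA100 and lane cannot be told apart. Levels are FPKM, fragments scaled by transcript length and by the library's mapped fragments, and differences are of mean log2(FPKM + 0.5).

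Orexin neurons lie in the lateral hypothalamus and project widely through the brain, where orexin acts on 2 receptors, encoded by Hcrtr1 and Hcrtr2. They maintain wakefulness and couple arousal to feeding and reward, and their loss causes narcolepsy. Neurons that make melanin-concentrating hormone (MCH), encoded by Pmch, are intermingled with them in the same area and in the neighbouring zona incerta. MCH acts through Mchr1 in mice, raises food intake and is most active in rapid eye movement sleep. Because both peptides come from cells found almost nowhere else in the brain, their messenger RNAs mark the lateral hypothalamus in a tissue sample. In a bulk sample, fewer cells of a type and less RNA per cell cannot be told apart.

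Within these data 4 libraries stood apart. Slc17a7, a glutamate transporter gene of cortical neurons, was under 20 FPKM in BCAA50 female 1 (6.23 FPKM, Hcrt-high), BCAA100 male 5 (3.99 FPKM, middle) and BCAA100 male 6 (12.6 FPKM, Hcrt-low). BCAA100 male 6 also had 29.4 FPKM of Tcf7l2, a thalamic transcription factor, with 0.658 FPKM of Avp and 0.355 FPKM of Oxt, the vasopressin and oxytocin genes of the hypothalamus. BCAA50 female 1 had 15.2 FPKM of Tcf7l2, against 0.114 to 3.04 FPKM in the other libraries of both sides. The library labelled BCAA20 male 6, in the middle, had 154.4 FPKM of the female-specific Xist and a listed 0 of the Y-linked Ddx3y, against its label. Columns summed to 293850 to 328809 FPKM, and the read depth behind a value is unknown. BCAA100 male 6 in particular moved many of the values that follow, and those that moved most are also given without it.

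Hcrt lies at chr11:100761069-100762931 on the minus strand of GRCm38 (GENCODE M21), with no overlapping gene. Pmch lies at chr10:88091072-88092375 on the plus strand, and Parpbp overlaps it on the opposite strand. The sources used here do not say whether the authors' counting used the strand, which leaves the values of Pmch and Parpbp uncertain to that degree. The 250 bases before each start (RefSeq, GRCm38.p6) are shown because these 2 genes define and lead the comparison. Capitals mark TATAAA in both, and in Pmch also TGACTCA read on the opposite strand, printed as TGAGTCA. The windows are chr11:100762932-100763181 on the minus strand and chr10:88090822-88091071 on the plus strand, 5′ to 3′:
Hcrt: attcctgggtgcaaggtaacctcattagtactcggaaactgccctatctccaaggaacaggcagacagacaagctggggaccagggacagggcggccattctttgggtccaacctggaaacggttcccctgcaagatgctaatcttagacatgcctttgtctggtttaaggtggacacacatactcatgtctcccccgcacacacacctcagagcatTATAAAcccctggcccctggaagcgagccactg
Pmch: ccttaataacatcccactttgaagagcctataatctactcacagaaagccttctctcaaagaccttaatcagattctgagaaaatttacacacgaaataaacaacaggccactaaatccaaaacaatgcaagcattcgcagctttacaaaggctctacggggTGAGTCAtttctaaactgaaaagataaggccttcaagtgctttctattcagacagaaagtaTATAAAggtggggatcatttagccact
TATAAA began 33 bases before the Hcrt start and 27 bases before the Pmch start. On either strand it was present in 12.4% of 32851 promoter windows of the same length. TGACTCA began 88 bases before the Pmch start and was present in 4.46% of windows on either strand. These motifs were chosen after the sequences were seen, and a match is a description only.

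On the Hcrt-high side, Hcrt was at 89.4 FPKM in BCAA50 female 1, 51.7 in BCAA100 female 1, 50.8 in BCAA50 male 5, 48.4 in BCAA100 female 3, 47.0 in BCAA200 female 3 and 45.2 in BCAA100 male 4. On the Hcrt-low side, it was at 18.7 FPKM in BCAA20 male 4, 16.9 in BCAA20 female 1, 13.3 in BCAA50 male 4, 1.65 in BCAA200 female 2 and 0.257 in BCAA50 female 2, and it was listed at 0 in BCAA100 male 6. The low side thus held 3 libraries with moderate Hcrt and 3 in which it was nearly or wholly missing. The nearest libraries outside the sides were BCAA100 male 5 at 41.5 FPKM, below the high side, and BCAA200 male 6 at 20.7 FPKM, above the low side. The edges of the sides therefore fall in a continuous range and not at gaps.

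**Figure D1:**
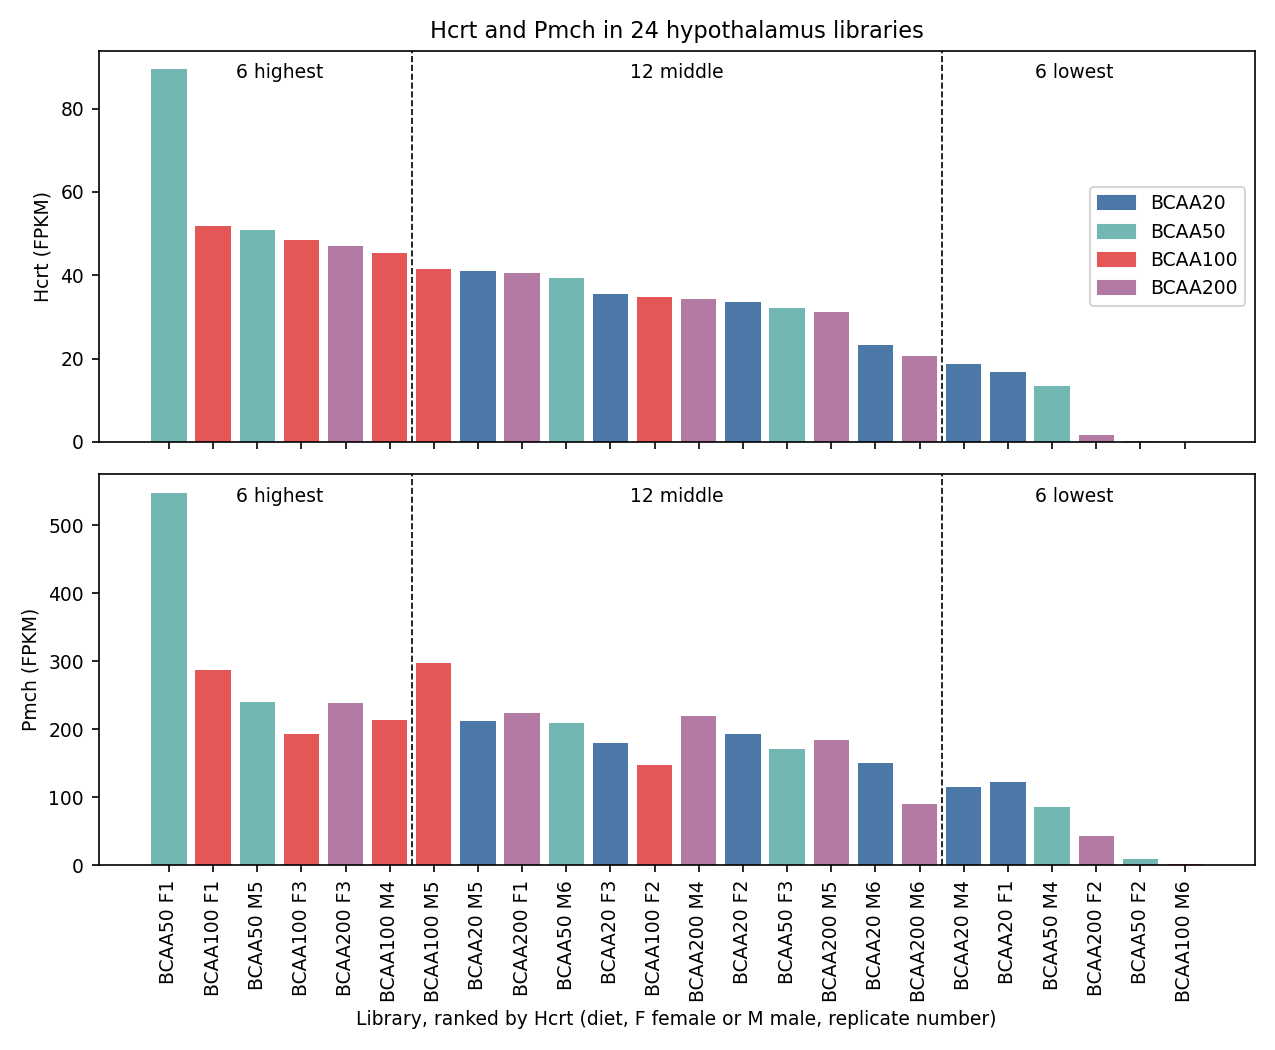
Hcrt and Pmch levels (FPKM) in the 24 libraries in order of Hcrt level, with both sides and the middle libraries marked. Hcrt runs from 89.4 FPKM down to a listed 0, and Pmch from 548 to 1.92 FPKM over the same order.

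The diets were spread over both sides. The Hcrt-high side held 0 BCAA20, 2 BCAA50, 3 BCAA100 and 1 BCAA200 library. The Hcrt-low side held 2 BCAA20, 2 BCAA50, 1 BCAA100 and 1 BCAA200 library. Of the high side 4 were female and 2 male, and of the low side 3 were female and 3 male. Lane 2 gave 3 of the high and 1 of the low libraries. The deposited BCAA intake, whose unit is not stated, ranged from 0.96 to 5.81 on the high side (median 2.06) and from 0.39 to 4.91 on the low side (median 1).

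The defining second marker followed the ranking. Pmch, the MCH precursor, was at 548 FPKM in BCAA50 female 1, 287.8 in BCAA100 female 1, 240.1 in BCAA50 male 5, 192.9 in BCAA100 female 3, 239.1 in BCAA200 female 3 and 213.5 in BCAA100 male 4. In the Hcrt-low libraries it was at 115.0 FPKM in BCAA20 male 4, 122.6 in BCAA20 female 1, 85.5 in BCAA50 male 4, 43.3 in BCAA200 female 2, 8.81 in BCAA50 female 2 and 1.92 in BCAA100 male 6. All Hcrt-high libraries lay above all Hcrt-low libraries, with BCAA50 female 1 far above the rest. The mean was 286.9 ± 131.8 FPKM (SD, n = 6) on the high side and 62.8 ± 52.6 FPKM (SD, n = 6) on the low side, a ratio of 4.57. The difference was 3.04 on the log2 scale against a pooled SD of 1.67, and it was between 2.29 and 3.43 when any 1 library was left out. Ranking the libraries by Pmch in place of Hcrt returned 4 of the 6 high and 5 of the 6 low libraries. The label of lateral hypothalamus content thus rests on 2 markers that varied together.

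The log2 difference of Pmch was smaller without the libraries whose other regional markers stood apart. It was 2.09 without BCAA50 female 1 and BCAA100 male 6 and the sides otherwise kept. It was 1.94 when the 4 libraries described above were left out and the remaining 20 ranked again. Ranked within lane 1 alone, the difference was 2.13, with 209.9 to 548 FPKM on the high side and 8.81 to 122.6 FPKM on the low side. The sides of Pmch did not overlap in any of these.

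**Figure D2:**
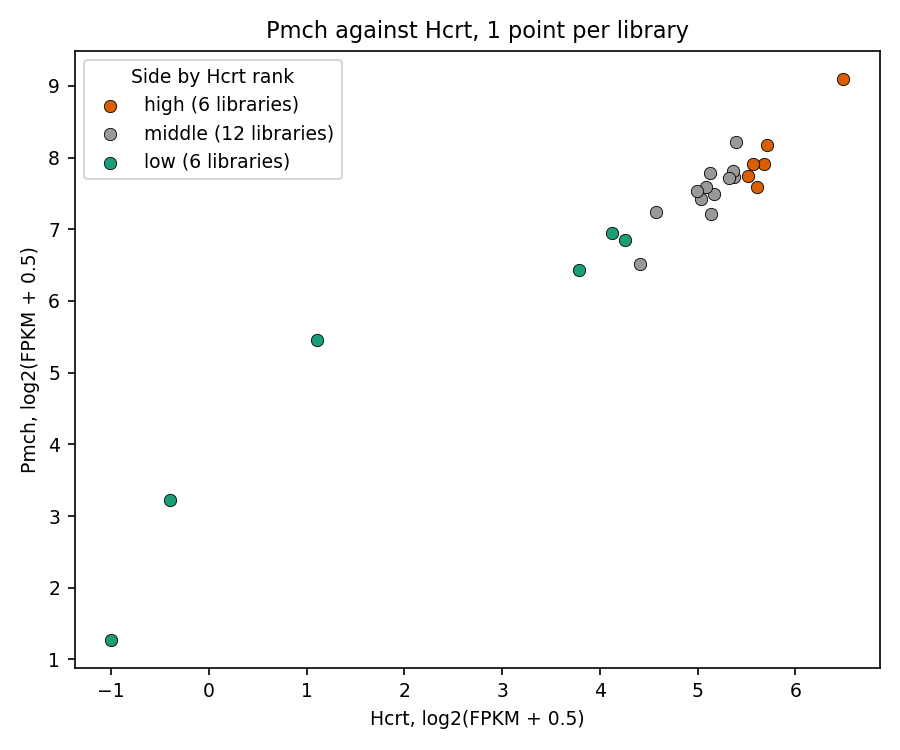
Pmch against Hcrt (FPKM, log axes) in each of the 24 libraries, coloured by side. Libraries with at least 10 FPKM of Hcrt lie along a band with a Pmch to Hcrt ratio of 3.99 to 7.26, and the libraries with 1.65 and 0.257 FPKM of Hcrt lie above it.

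The receptors had small differences. Hcrtr1, the receptor selective for orexin A, was at 0.799 to 2.23 FPKM in the Hcrt-high libraries. It was at 0.746 to 1.58 FPKM in 5 Hcrt-low libraries and at 4.82 FPKM in BCAA100 male 6, a log2 difference of -0.01 (0.28 without that library). Hcrtr2, which binds both orexins, had a mean under 1 FPKM over the 24 libraries and was left out of the counts, with a log2 difference of -0.06. Mchr1, the MCH receptor, was at 5.06 to 9.76 FPKM on the high side and 3.63 to 9.57 FPKM on the low side, a log2 difference of 0.10. The sides of all 3 receptors overlapped. Of the 4 ligands and receptors other than Hcrt, 3 passed the level filter of a mean of at least 1 FPKM, and Pmch was the only member without overlap.

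Among genes known from orexin and MCH neurons, 6 of 10 passed the level filter, Pmch included. The median log2 difference of these 6 was 0.60, against 0.03 over all 13805 genes compared, with 5 above 0 and 1 below. Of all genes, 8435 (61.1%) were above 0, which is the level against which each list's sign counts between the sides stand. The median of the 6 genes was 0.37 with the sides kept but without BCAA50 female 1 and BCAA100 male 6. Pdyn, the precursor of dynorphin that orexin neurons co-release, was at 12.6, 12.7, 5.001, 28.9, 23.2 and 34.2 FPKM in the Hcrt-high libraries in the order of their Hcrt level. In the Hcrt-low libraries it was at 11.3, 9.55, 15.2, 7.93, 19.8 and 2.59 FPKM. The sides overlapped widely, the third highest Hcrt library having less Pdyn than all but 1 Hcrt-low library, and the log2 difference was 0.76, or 0.50 without the same 2 libraries.

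Cartpt, the CART peptide precursor found in many MCH neurons, was at 13.2 to 59.0 FPKM on the high side and 16.7 to 27.4 FPKM on the low side (log2 difference 0.51). Plagl1, a zinc finger transcription factor, had a log2 difference of 0.69, with 3.75 to 11.4 FPKM on the high side and 0.829 to 9.62 FPKM on the low side, and of 0.32 without the same 2 libraries and -0.04 when ranked within lane 1. Tacr3, the neurokinin B receptor carried by a subset of MCH neurons, had a log2 difference of 0.24. Nptx2, a pentraxin that clusters glutamate receptors and is made by orexin neurons, was lower on the high side (log2 difference -0.35, or -0.58 without BCAA100 male 6), with 7.83 to 21.1 FPKM against 6.95 to 22.7 FPKM. The sides of all of these overlapped.

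Members under the filter were the orexin neuron transcription factor Lhx9, the peptide precursor Qrfp, the transcription factor Ebf2, and Parpbp. Their log2 differences were -0.24, 0.25, 0.09 and -0.25. Lhx9 was at 0.291 to 2.32 FPKM in the Hcrt-high libraries, and on the low side it was highest, at 4.91 FPKM, in BCAA100 male 6, the library with Hcrt listed at 0. Without that library the Lhx9 difference was 0.13. Qrfp was listed at 0 in BCAA200 female 3 of the high side and in BCAA100 male 6 of the low side.

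Peptides and other genes of the wider lateral hypothalamus and zona incerta lay mostly above 0, and BCAA100 male 6 carried much of this. All 12 list members passed the filter, and 12 of 12 were above 0, with a median of 0.35. Without BCAA100 male 6, 9 were above and 3 below, with a median of 0.20. The differences were 0.87 for Trh, thyrotropin-releasing hormone; 0.83 for Gal, galanin; 0.65 for Tac1, the substance P precursor; 0.56 for Penk, the enkephalin precursor; and 0.30 for Nts, neurotensin. They were 0.52 for Calb2 (calretinin), 0.12 for Calb1 (calbindin), 0.33 for Lhx6, a zona incerta transcription factor, 0.36 for Meis2, 0.16 for Crh, and 0.10 and 0.33 for Slc17a6 and Slc32a1, the transporters of glutamatergic and GABAergic vesicles. Without BCAA100 male 6 the differences were 0.15 for Trh, 0.34 for Gal, 0.25 for Penk, 0.12 for Nts and 0.15 for Meis2, and they were -0.02 for Calb1, -0.18 for Lhx6 and -0.05 for Crh. Tac1 (0.59), Calb2 (0.72), Slc32a1 (0.41) and Slc17a6 (0.44) did not shrink by as much or were greater without it. BCAA50 female 1, also high in Tcf7l2, stays on the high side in that setting. All 9 measured thalamic markers, Calb2 among them, were then above 0 (median 0.49). Slc17a6 reached 64.2 FPKM on the high side and 74.6 FPKM on the low side, against medians of 19.9 and 21.25 FPKM. The thalamic part in the Calb2 and Slc17a6 differences was not tested. None of the 12 had sides without overlap. Gal, for example, was at 2.24 to 17.4 FPKM on the high side and 0.400 to 12.9 FPKM on the low side. Trh was at 17.0 to 44.6 FPKM on the high side, and on the low side at 14.5 to 36.8 FPKM in 5 libraries and at 0.760 FPKM in BCAA100 male 6. The median of this list was 0.14 when ranked within lane 1 and 0.16 with the sides kept but without BCAA50 female 1 and BCAA100 male 6. The list shares Penk and Tac1 with the striatal markers and Trh and Crh with those of the paraventricular nucleus. It also shares Calb2 with the thalamic markers and Lhx6 with the hypothalamic transcription factors. The other members are not exclusive to this area, and the part of other tissue in these differences was not tested.

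Across all 13805 genes, 8 were higher in every Hcrt-high library than in any Hcrt-low library (0.0580% of genes), and 4 were lower (0.0290%). Together they were 12 genes (0.0869%). For a gene unrelated to Hcrt, 6 libraries separate fully from 6 with a probability of 0.00216, both directions together. The observed share was below this, so these counts are no more than unrelated genes could give. That holds for this ranking only. Within lane 1, also 6 against 6, 43 genes were higher and 19 lower, a share above that probability. With the 4 libraries that stood apart left out and the rest ranked again, 48 were higher and 36 lower, also above it. Naming a gene here is a description only. With each library scaled to the same median, the counts were 3 higher and 11 lower, so the balance of directions depends on the scaling, and 6 of the 12 remained without overlap. The higher genes other than Pmch that have a gene name were Sh3gl3, Myh7b, Gpatch3, Ufl1 and Rps25-ps1, and 2 were predicted genes. The lower genes were Myoc, Elmo2, Gcdh and Psmg2.

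Sh3gl3 encodes endophilin A3, a membrane-curving protein of synaptic vesicle recycling. It was at 16.5 to 20.1 FPKM on the high side and at 14.1 to 15.7 FPKM in 5 Hcrt-low libraries, with 0.321 FPKM in BCAA200 female 2. Its log2 difference of 0.95 came mainly from that library and was 0.25 without it. A middle library, BCAA100 female 2, had a similar value of 0.307 FPKM. Myh7b, a myosin heavy chain whose gene also hosts a microRNA, was at 2.01, 1.55, 2.00, 1.32, 1.84 and 1.17 FPKM on the high side. On the low side it was at 0.912, 1.17, 0.716, 0.739, 0.776 and 1.16 FPKM, a log2 difference of 0.60. The sides of Myh7b nearly touched, at 1.172 and 1.168 FPKM.

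Myoc, a secreted glycoprotein known from the eye's outflow tissue, was the lower gene with the greatest difference, -0.97 on the log2 scale. It was at 5.77, 13.5, 14.2, 11.4, 10.8 and 5.30 FPKM on the high side and 19.0, 24.6, 14.8, 21.1, 16.2 and 20.8 FPKM on the low side. BCAA50 male 5, at 14.2 FPKM, and BCAA50 male 4, at 14.8 FPKM, were the nearest libraries across the sides. Markers of meninges and fibroblasts were also lower on the high side, all 11 measured members being below 0 with a median of -0.55. That median was -0.24 when ranked within lane 1, -0.26 with 4 libraries a side, and -0.34 with the 4 libraries that stood apart left out and the rest ranked again. Their summed level was 369 to 1033 FPKM on the high side and 623 to 1237 FPKM on the low side, and their part in the Myoc difference was not tested.

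The other differences were small. They were 0.33 for Gpatch3, a G-patch protein; 0.17 for Ufl1, the ligase that attaches the ubiquitin-like protein UFM1; and 0.16 for Rps25-ps1, a processed pseudogene of a ribosomal protein gene whose reads may be shared with its parent. They were -0.40 for Elmo2, which promotes engulfment and cell migration; -0.24 for Gcdh, a mitochondrial enzyme of lysine breakdown; and -0.22 for Psmg2, a proteasome assembly chaperone.

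**Figure D3:**
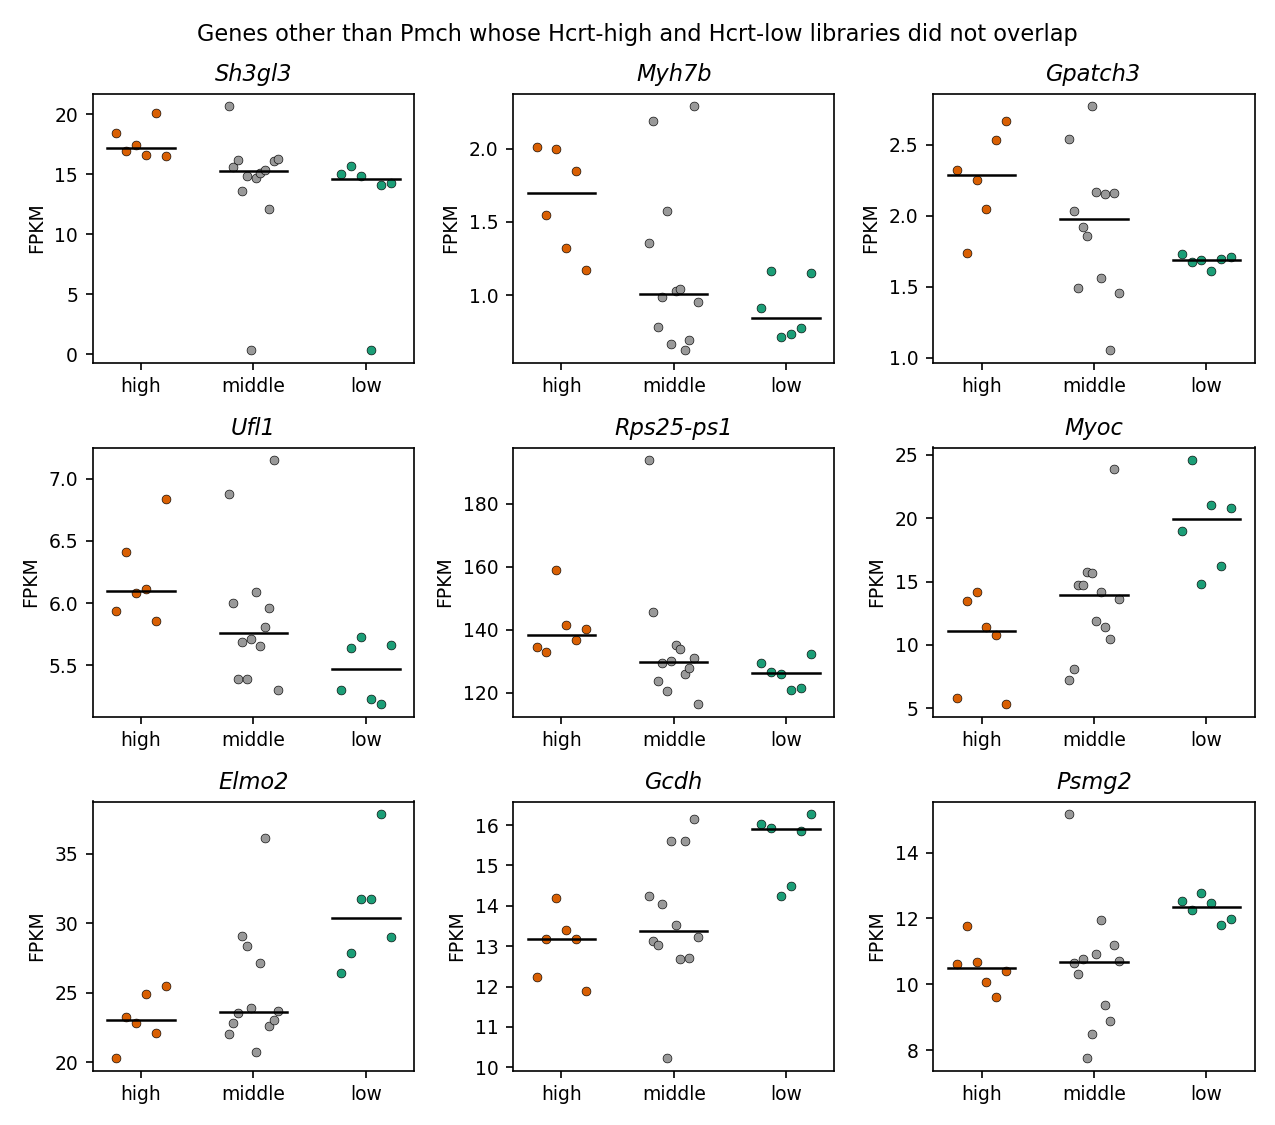
FPKM per library of the named genes other than Pmch whose sides did not overlap, with each Hcrt-high, middle and Hcrt-low library as a point. The Myoc sides nearly touch at 14.2 and 14.8 FPKM, and Sh3gl3 has 1 Hcrt-low library near 0, as well as a middle library.

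The 12 genes were not equally robust to how the sides were drawn. Leaving out any 1 of the 12 libraries raised the number of higher genes from 8 to between 14 and 113, and the lower from 4 to between 5 and 58. The counts were 113 and 58 without BCAA100 male 6, 52 and 16 without BCAA50 male 5, and 19 and 5 without BCAA50 female 1. All 12 remained without overlap in each of these, as they must when a library is only removed. With 8 libraries a side, only Pmch and Rps25-ps1 of the 12 remained. Ranked within lane 1, only Pmch of the 12 remained. With the 4 libraries of unusual markers left out and the rest ranked again, Pmch, Myh7b, Gpatch3, Ufl1 and Rps25-ps1 remained.

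Lists for other hypothalamic nuclei depended on single libraries. The median log2 difference over 5 genes of the paraventricular and supraoptic nuclei was 0.46, with 5 of 5 above 0, and it was -0.05 without BCAA100 male 6, with 2 above and 3 below. Avp and Oxt, at 0.46 and 0.36 with that library, were at -0.54 and -0.61 without it. Of 8 measured hypothalamic transcription factors, 7 were above 0 with a median of 0.42, and 5 were above 0 with a median of 0.20 without BCAA100 male 6. The other medians were -0.01 over 5 arcuate genes (-0.31 to 0.36 with any 1 library left out), 0.11 over 2 of the suprachiasmatic nucleus (-0.19 to 0.24) and 0.16 over 4 of the ventromedial and dorsomedial nuclei (-0.06 to 0.32). They were 0.43 over 2 of the mammillary and subthalamic nuclei (0.19 to 0.76) and 0.46 over 3 of histamine neurons (0.14 to 0.78). Of 15 receptors of feeding signals, 8 were above 0 and 7 below, with a median of 0.04 (-0.06 to 0.08).

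Markers of neighbouring regions also differed between the sides. All 14 striatal markers were above 0, with a median of 0.69 and a summed level of 158 to 890 FPKM on the high side against 145 to 396 FPKM on the low side. Drd2, the D2 dopamine receptor, was at 8.77, 9.01, 5.86, 21.6, 26.0 and 20.9 FPKM on the high side and 3.17, 3.31, 5.48, 4.46, 7.06 and 10.9 FPKM on the low side. The highest values were in 3 Hcrt-high libraries, and the sides overlapped. The striatal median was 0.43 without BCAA100 female 3, 0.45 without BCAA200 female 3, BCAA100 male 4 or BCAA100 male 6, 0.16 when ranked within lane 1 and -0.08 with 4 libraries a side. Of the striatal list, Penk and Tac1 are also made in the hypothalamus.

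All 16 markers of oligodendrocytes and myelin were above 0, with a median of 0.40 and a summed level of 1751 to 3217 FPKM against 837 to 4509 FPKM. The median was 0.21 without BCAA200 female 2 and 0.68 without BCAA100 male 6. Cortical and hippocampal markers were 3 above and 10 below 0, with a median of -0.28 and a summed level of 78.7 to 371 FPKM against 98.1 to 477 FPKM. Their median was -0.64 without BCAA100 male 6, -0.02 without BCAA50 female 1, -0.11 without BCAA200 female 2 and -0.18 without BCAA50 female 2. Thalamic markers were 5 above and 4 below, with a median of 0.16 (-0.41 without BCAA50 female 1 and 0.49 without BCAA100 male 6). Their summed level was 68.1 to 334 FPKM against 53.1 to 333 FPKM, the top of each range being BCAA50 female 1 and BCAA100 male 6. The sum counts Calb2, which reached 151 FPKM on the high side and 109 FPKM on the low side. All 5 blood markers were below 0, with a median of -0.77 and a summed level of 283 to 614 FPKM against 246 to 3775 FPKM, and the median was -0.31 without BCAA20 male 4. The part of these regional and cell type differences in the Pmch and peptide differences was not tested.

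The remaining cell type lists had medians of -0.03 over 12 astrocyte, 0.04 over 15 microglial, -0.12 over 10 endothelial and 0.03 over 10 tanycyte and ependymal markers. With any 1 library left out, these ran from -0.09 to 0.08, -0.01 to 0.09, -0.19 to -0.04 and -0.17 to 0.10. The median of 4 choroid plexus markers was 0.62, and 0.15 without BCAA200 female 3, and that of 2 pituitary markers was 0.10 (-0.12 to 0.36). Of 20 immediate early genes, 18 were above 0 with a median of 0.25, and 11 were above 0 with a median of 0.04 without BCAA100 male 6. The 4 measured sex-linked genes had a median of -0.57 (-1.07 to -0.20), the sides holding different numbers of males.

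**Figure D4:**
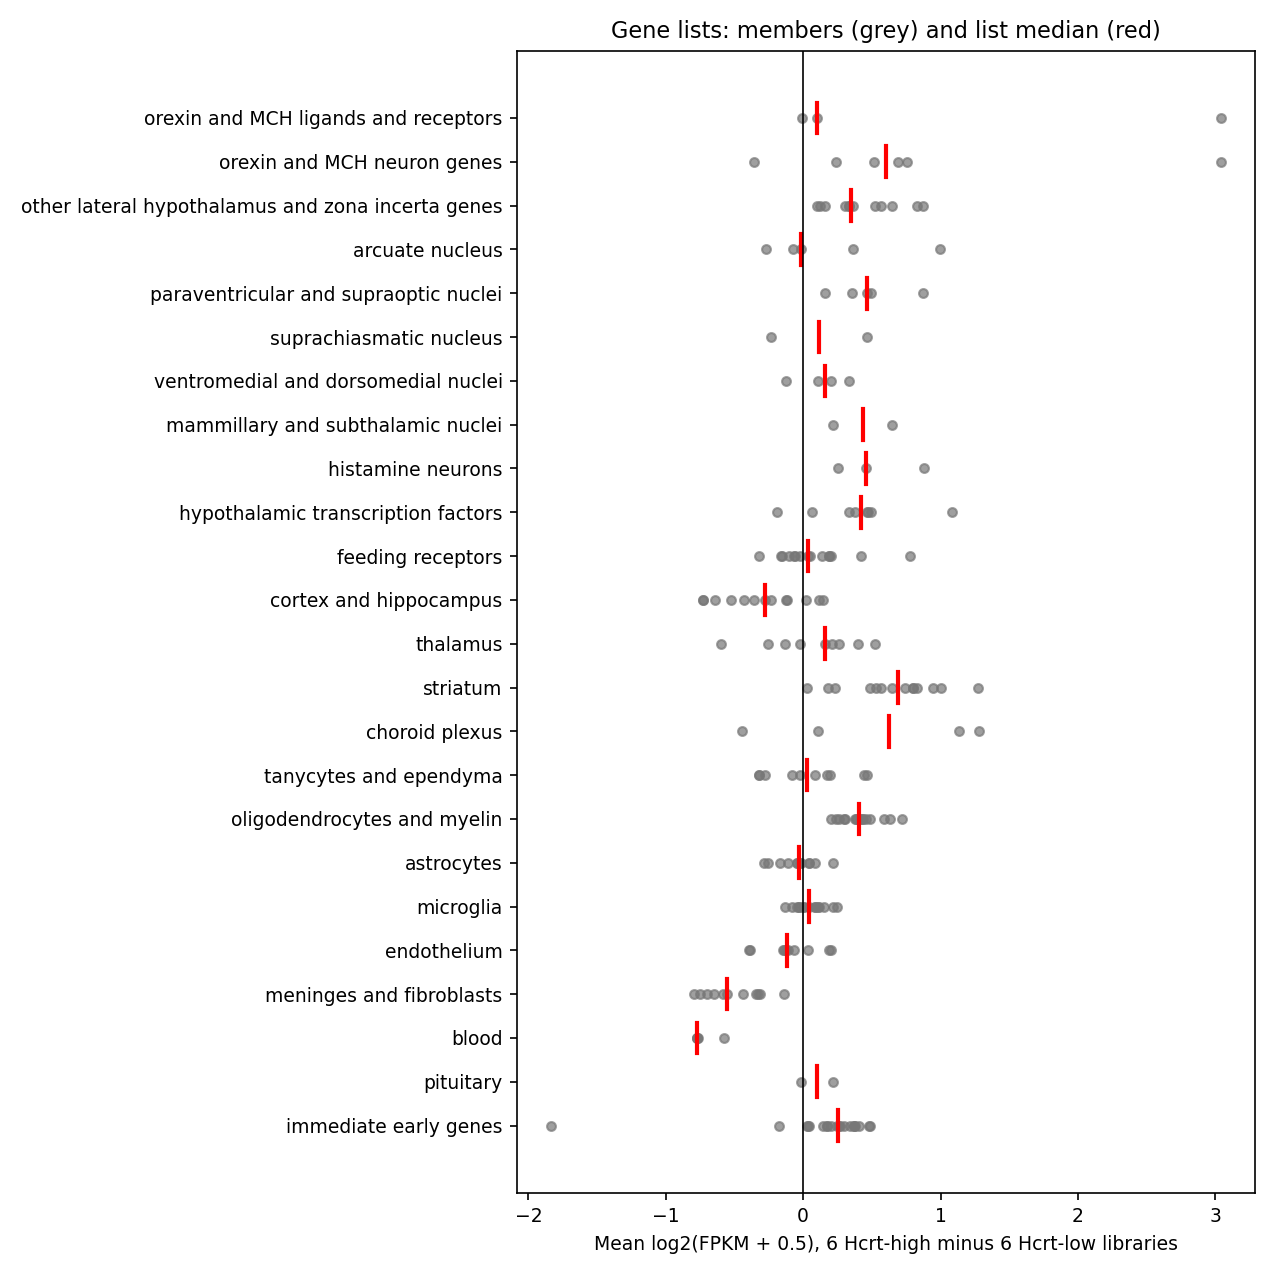
Median log2 difference (Hcrt-high minus Hcrt-low) of each gene list, with its measured members as points. Striatal, oligodendrocyte and other lateral hypothalamic members lie above 0, and meningeal and blood members below it, with BCAA100 male 6 included.

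The 12 middle libraries, from 20.7 to 41.5 FPKM of Hcrt, gave a test in samples that neither side used. In them Pmch rose with Hcrt, with Pearson's r = 0.859 (permutation p = 0.00037, n = 12) and Spearman's rho = 0.755 (permutation p = 0.00631), two-sided. Without the 2 libraries farthest from the median Hcrt level, BCAA200 male 6 and BCAA20 male 6, r was 0.678 (permutation p = 0.0232, n = 10). Within lane 1, r was 0.904 (permutation p = 0.00033, n = 10), and 0.726 without the same 2 libraries (exact permutation p = 0.0563, n = 8). Without BCAA100 male 5 and the library labelled BCAA20 male 6, r was 0.901 (permutation p = 0.00501, n = 10). Lane 2 held 2 middle libraries, too few for a value. Pmch was 90.6 to 298 FPKM in the middle libraries, the lowest being BCAA200 male 6 and the highest BCAA100 male 5.

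Over all 13805 genes the slope on Hcrt in the middle libraries gave 0 calls in either direction with limma at an adjusted p under 0.05 (0% of genes). At an unadjusted p under 0.05 there were 516 genes (3.74%). Pmch had the second lowest p of all genes, with a slope of 1.17 ± 0.204 (SE) on the log2 scale per doubling of Hcrt, an unadjusted p of 7.9e-05 and a limma adjusted p of 0.543. It therefore passed the single test but not the correction over all genes. In simulated data, the same fit recovered 8% of genes given a slope of 0.5 and 44% of those given a slope of 1. The 0 calls therefore do not show that no other gene varied with Hcrt.

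The other genes with the lowest p-values also failed the correction. The positive slopes were Txndc11, a thioredoxin-domain protein (1.59), Snora64, a small nucleolar RNA within Rps2 on the same strand (2.77), Tln2, the cytoskeletal linker talin 2 (1.03), and Gga2, a Golgi sorting adaptor (0.89). Negative slopes included those of Ggt7, of the gamma-glutamyltransferase family (-0.53), the actin regulator Abi1 (-0.92), the galactosyltransferase B3galt5 (-3.06) and the endosomal protein Dnajc13 (-0.71). Their limma adjusted p was between 0.217 and 0.966. Without BCAA200 male 5, Txndc11 and Snora64 passed, both at a limma adjusted p of 0.022.

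Of the orexin and MCH neuron genes, Pdyn had a slope of 1.07 ± 0.486 (SE), with an unadjusted p of 0.0468 and a limma adjusted p of 0.998. The 6 measured members, Pmch included, had a median slope of 0.53, 4 above 0 and 2 below, against 0.03 over all genes. Besides Pmch and Pdyn, the slopes were 0.75 for Cartpt, 0.30 for Tacr3, -0.38 for Nptx2 and -0.42 for Plagl1. The 12 other lateral hypothalamus and zona incerta genes had a median slope of 0.37, 11 above 0 and 1 below. Slc32a1 was the only one of these 12 with an unadjusted p under 0.05 (0.0409, limma adjusted p = 0.998). Hypothalamic transcription factors had 8 of 8 slopes above 0 and paraventricular and supraoptic genes 5 of 5, none past the correction. Of all 13805 genes, 7905 had a slope above 0 and 5900 below, against which the sign counts of these lists stand. Meningeal markers had 11 of 11 below 0 and cortical markers 11 of 13 below. BCAA100 male 5 had the highest Hcrt of the middle libraries (41.5 FPKM). It also had the highest Avp, Oxt, Trh, Nkx2-1 and Otp of all 24 libraries, and only 3.99 FPKM of Slc17a7. The sign counts of the lists were not taken without it. Otp is on both the transcription factor and the paraventricular list. Striatal markers, with 8 above and 6 below, and oligodendrocyte markers, with 9 above and 7 below, were mixed in the middle libraries. Myoc had a slope of -0.72 (unadjusted p = 0.065).

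No difference in Hcrt or Pmch between diets, sexes or lanes passed the test. The mean Hcrt level was 28.1 ± 9.85 FPKM with BCAA20, 37.6 ± 31.2 FPKM with BCAA50, 36.9 ± 19.0 FPKM with BCAA100 and 29.3 ± 16.2 FPKM with BCAA200 (SD, 6 libraries each). The mean Pmch level was 162.5 ± 39.3 FPKM with BCAA20, 210.7 ± 186 FPKM with BCAA50, 190.3 ± 109 FPKM with BCAA100 and 167.0 ± 80.8 FPKM with BCAA200 (SD, 6 libraries each). For Hcrt, the SD within each diet exceeded every difference between diet means, and for Pmch it did so in all diets but BCAA20. In 16 comparisons of the 2 genes between diet pairs, sexes and lanes, log2 differences ran from -0.45 to 0.61 and the lowest permutation p was 0.664, for Pmch between lanes. The adjusted p was 0.994 in all 16. The exact tests between diets could reach a p of 0.00216.

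**Figure D5:**
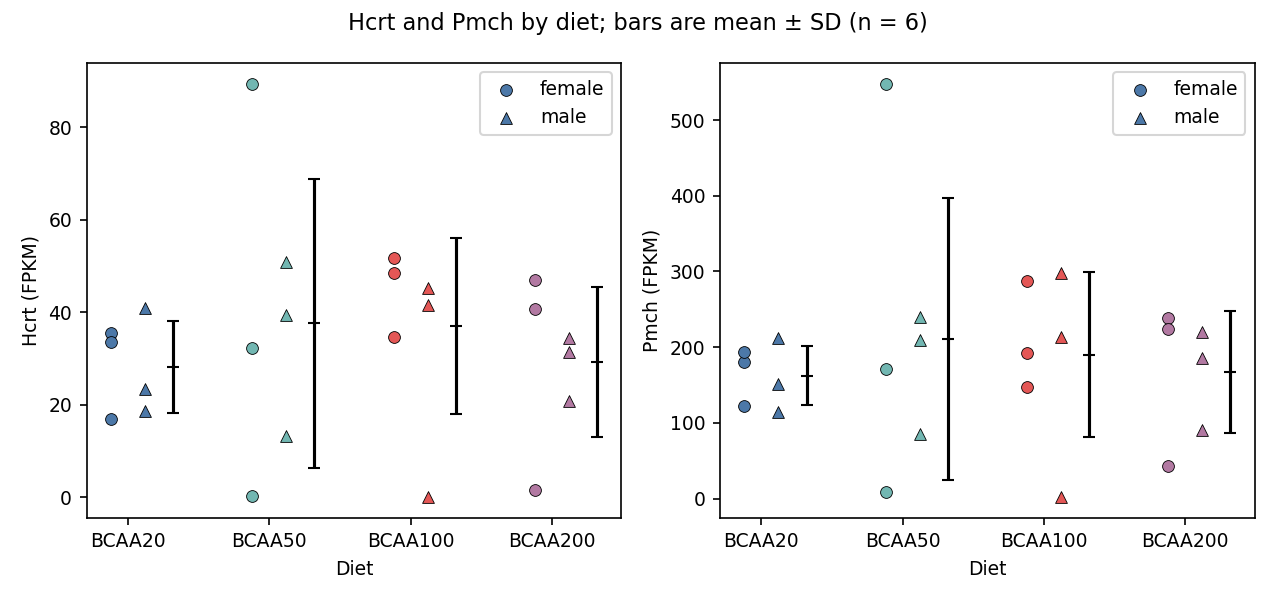
Hcrt and Pmch levels (FPKM) of each library by diet, 6 libraries per diet, with the mean and SD. The diets overlap throughout, and the libraries near 0 are on BCAA50, BCAA100 and BCAA200.

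The contrast of BCAA200 with BCAA20, both in lane 1, was also fitted over all 13806 genes. With limma it gave 0 calls in either direction (0% of genes), and 399 genes (2.89%) at an unadjusted p under 0.05. Hcrt had a log2 difference of -0.34 ± 1.12 (SE) and Pmch of -0.15 ± 0.999 (SE), both smaller than their error. None of the measured orexin and MCH neuron genes or other lateral hypothalamus genes had an unadjusted p under 0.05. BCAA200 libraries had both 47.0 and 1.65 FPKM of Hcrt, so the range within a diet was wider than any difference between the diet means.

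No relation of either gene with BCAA intake within a diet passed the test. The 8 relations, 2 genes in 4 diets of n = 6, had Pearson's r from -0.533 to 0.430 with a lowest exact permutation p of 0.242 (adjusted p = 0.780). The lowest exact permutation p of Spearman's rho was 0.111 (adjusted p = 0.663), for Pmch on BCAA20. Without the 2 libraries farthest from the median intake, r over the remaining 4 ran from -0.226 to 0.995, so that these values rest on few animals. Over all 24 libraries, the authors' deposited table gave a correlation with intake of -0.0388 for Hcrt (p = 0.857) and -0.0409 for Pmch (p = 0.849).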

How the data were processed

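Total RNA of 24 hypothalami was sequenced from stranded (TruSeq) libraries, per the labels' protocols. The values are FPKM per gene symbol, as the authors deposited them, with a Pearson correlation score of each gene with BCAA intake and its p-value, both deposited by the authors. Per the submitters' processing notes, the tools include TopHat2 2.0.14 and StringTie 1.2.4 and the build is GRCm38, without roles or order. The sources used here do not give an annotation release. Whole reads could not be recovered from the FPKM values, so depth is unknown and no counting interval is given.

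Libraries were ranked by Hcrt FPKM. Of 18777 symbols, 13806 had a mean of at least 1 FPKM, and Hcrt was then left out. Values were log2(FPKM + 0.5), on which folds of low genes are understated. Slopes and contrasts were fitted with limma 3.58.1 (R 4.3.3, trend and robust moderation, Benjamini-Hochberg adjustment, two-sided). Permutation tests were computed with numpy 2.4.6, with ranks from scipy 1.17.1. Scripts were tested on simulated data. The diet contrast used 8 group means over all 24 libraries. The replicates are separate animals, per the labels.

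The libraries and the 25 gene lists were chosen with earlier results of these data known. Genes named are all members of both orexin and MCH lists, list members and up to 12 genes per direction whose sides did not overlap, and the 5 per direction with the lowest p in the middle libraries. The wider lateral hypothalamus list and Drd2 were also given values, chosen after they were seen. Predicted genes were counted, not named, and 1 gene under this rule is not reported here. Alternatives were other pseudocounts, filters, scaling, side sizes, a lane 1 ranking, covariates, a replicate block and leaving out libraries.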

Additional observations from a re-analysis of the deposited data

Results flagged for a closer look

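Within groups of 6 libraries, 8 of 42 groups tested had a library far from the other 5, where chance gives about 1 group in 20, and the groups share libraries. BCAA100 male 6 was the library in 5 of these: lowest on its diet for Hcrt (listed at 0 FPKM) and Pmch (1.918 FPKM), and, among the Hcrt-low libraries, highest for Hcrtr1 (4.821 FPKM) and lowest for Mchr1 (3.627 FPKM) and Nptx2 (6.949 FPKM). BCAA200 female 2 was lowest on its diet for Hcrt (1.649 FPKM) and lowest of the Hcrt-low libraries for Sh3gl3 (0.321 FPKM). BCAA50 male 5 was highest of the Hcrt-high libraries for the pseudogene Rps25-ps1 (158.8 FPKM).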

How the results depend on the processing

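The direction of Pmch between the sides and its slope in the middle libraries were the same under every alternative run. The numbers of genes without overlap, 8 higher and 4 lower, depended on most choices. They were 17 and 7 with no level filter, 4 higher with a mean of at least 5 FPKM, 3 and 11 with libraries scaled to the same median, 128 and 36 with 4 libraries a side, and 2 and 0 with 8 a side. They were 43 and 19 within lane 1, 48 and 36 with the 4 libraries that stood apart left out and the rest ranked again, and 135 and 64 with the sides kept without them, an alternative chosen after seeing the data. Fewer libraries a side leave fewer that can overlap; for the other changes the cause was not tested. Leaving out 1 library gave 14 to 113 higher and 5 to 58 lower. The striatal median was -0.08 with 4 a side.

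In the middle libraries 0 to 2 genes were called up when 1 library was left out, and in BCAA200 against BCAA20 0 to 1, the call coming without BCAA20 male 5. The Pmch slope was 0.867 to 1.39 over these (limma adjusted p 0.225 to 0.999), and r 0.713 to 0.900. No diet, sex or lane comparison passed under any alternative, the lowest adjusted p being 0.416. With the replicate number as a block the Pmch slope was 1.10 (limma adjusted p = 1.00) and both fits gave 0 calls. Same-numbered BCAA200 and BCAA20 libraries had correlations of -0.0913 to 0.0593, so the numbers were not taken to pair the animals. FPKM without depth limits what can be said of values near 0.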

Other observations

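The ratio of Pmch to Hcrt was narrow where both were well expressed. In the 21 libraries with at least 10 FPKM of Hcrt, it ran from 3.99 to 7.26 with a median of 5.51. It was 26.3 in BCAA200 female 2 and 34.3 in BCAA50 female 2, where Hcrt was at 1.65 and 0.257 FPKM. BCAA200 female 2 still had 43.3 FPKM of Pmch and BCAA50 female 2 had 8.81 FPKM.

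BCAA100 male 6 had the lowest level of all 24 libraries for several peptide genes besides Hcrt and Pmch. Trh was at 0.760 FPKM, against 12.9 FPKM in the next lowest library, and Npy was at 8.04 FPKM, against 9.94 FPKM in the next lowest. Over the 24 libraries Npy had a mean of 44.2 FPKM, against 0.17 FPKM for Agrp of the same arcuate list. The region from which the Npy RNA came was not tested. BCAA100 male 5, with 41.5 FPKM of Hcrt, had the highest Avp (262 FPKM), Oxt (291 FPKM) and Trh (62.6 FPKM). The thalamic marker sum was 334 FPKM in BCAA50 female 1 and 333 FPKM in BCAA100 male 6, and 161 FPKM in the next highest library. The sum counts Calb2, which reached 151 FPKM on the high side, 128 FPKM in the middle libraries and 109 FPKM on the low side. These 2 libraries, alike in this sum but not in Tcf7l2 (15.2 and 29.4 FPKM), had the highest and the lowest Hcrt of all 24.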
